A study of Homo sapiens with 33 samples.

Results

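The 9 genes described here make or salvage the building blocks of DNA: TYMS, SHMT1, DUT, DTYMK, TK1, RRM1, RRM2, GART and CTPS1. They were taken by name from a matrix of 58302 genes, and all 9 passed the filter of 100 CP20M in at least 1 library that left 17803 genes for testing. CP20M is a gene's read count scaled to a library size shared by all libraries. It is not divided by gene length, so expression levels are compared within a gene and not between genes. Values of different genes are set side by side only where reads might be shared between loci.

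The study asked which malignant pleural mesothelioma (MPM) cell lines stop cycling under palbociclib, an inhibitor of the kinases CDK4 and CDK6. The RNA-seq libraries used here came from 6 established lines. Each was treated with 1 µM palbociclib or 0.1% DMSO as control for 9 or 10 days. The sensitive lines were the MPM lines H2052 (2 pairs of palbociclib and DMSO libraries) and H2452, H28 and MSTO-211H (3 pairs each). The resistant lines were MPP89 (2 pairs), an MPM line with a mutated RB1 gene, and MeT-5A (1 pair), which is not a tumour line but mesothelial cells immortalized by SV40. In each sensitive line 1 further library was made after 10 days of palbociclib and 48 h of drug washout, and 1 MeT-5A library was untreated. This gave 14 DMSO, 14 palbociclib, 4 washout and 1 untreated libraries, 33 in all. Each line is a single cell line grown in culture, so replicates are separate experiments on the same cells. The study also sequenced patient-derived lines and tumours, which are not among these libraries.

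Thymidylate synthase (TYMS) methylates dUMP to dTMP with a folate cofactor, and it is the main target of pemetrexed, the antifolate given as first-line chemotherapy in mesothelioma. Ribonucleotide reductase, built from the subunits RRM1 and RRM2, turns ribonucleotides into deoxyribonucleotides. Many of these genes are transcribed in late G1 and S phase through E2F factors, which the retinoblastoma protein holds inactive until CDK4, CDK6 and CDK2 phosphorylate it.

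Column totals lay between 20007662 and 20021400, so they carry no depth. The steps between low values gave an estimated depth for 23 of the 33 libraries, from 12700000 to 19800000 reads with a median of 16300000. The other 10 libraries held every low whole number, which places them above this range, so the median describes the shallower libraries only. At the lowest estimated depth 1 read was worth 1.575 CP20M, which is small beside the levels given below. Of 9 mesothelial markers, 4 to 7 reached 100 CP20M in each line, and KRT5 stayed under 100 in all 6. RB1 was lowest in MPP89, at 177 to 256 CP20M, against 553 or more in the other lines.

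Promoters are shown for RRM2, TK1 and TYMS, which had the largest differences in the sensitive lines, for DUT, and for CTPS1, which had the smallest. RefSeq (GRCh38.p14) lists 17 start sites for the 9 genes, each with a window from 250 bases before to 50 after the start. Each window was searched on both strands for the E2F octamers TTTCCCGC, TTTCGCGC, TTTGCCGC and TTTGGCGC, the CHR element TTTGAA and the CCAAT box. These motifs did not overlap one another in the stretches shown. In the sequences below, which run from 130 bases before to 20 after the start and read 5′ to 3′ in the direction of the gene, capitals mark E2F octamers and CCAAT boxes or their reverse complements.
TYMS, chr18:657523-657672, + strand: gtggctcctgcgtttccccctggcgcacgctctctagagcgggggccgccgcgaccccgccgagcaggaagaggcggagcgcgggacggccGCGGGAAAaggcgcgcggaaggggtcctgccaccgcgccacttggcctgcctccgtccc
DUT, start site 4, chr15:48332067-48332216, + strand: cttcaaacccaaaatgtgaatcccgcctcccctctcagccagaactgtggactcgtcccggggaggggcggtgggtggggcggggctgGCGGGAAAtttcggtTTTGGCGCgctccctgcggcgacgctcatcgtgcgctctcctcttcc
RRM2, start site 2, chr2:10122609-10122758, + strand: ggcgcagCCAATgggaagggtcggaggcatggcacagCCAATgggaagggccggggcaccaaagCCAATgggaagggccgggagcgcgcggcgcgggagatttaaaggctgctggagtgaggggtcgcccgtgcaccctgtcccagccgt
TK1, start site 1, chr17:78187033-78187182, - strand: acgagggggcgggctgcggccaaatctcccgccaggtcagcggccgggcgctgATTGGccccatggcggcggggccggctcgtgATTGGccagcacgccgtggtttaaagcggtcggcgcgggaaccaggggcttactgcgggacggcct
CTPS1, start site 1, chr1:40979566-40979715, + strand: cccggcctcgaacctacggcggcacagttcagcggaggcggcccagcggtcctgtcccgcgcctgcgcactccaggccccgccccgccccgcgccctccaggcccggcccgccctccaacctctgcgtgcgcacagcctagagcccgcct

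The strict E2F octamer stood in 3 of the 17 windows, 1 each of TYMS, DUT and GART, against 3.31% of all 35116 promoter windows. By gene this was 3 of 9, against 3.99% of all 27305 genes with a window. Counted in bases from the start, it began at -39 in TYMS, at -42 and -27 in DUT, and far out in GART, at -245. CCAAT boxes stood in 9 of the 17 windows, against 34.6% of all windows, and in 6 of the 9 genes (GART, TK1, RRM1, RRM2, DTYMK and SHMT1), against 39.7% of all genes. The RRM2 stretch holds 3 of them in a repeated unit and the TK1 stretch 2 in reverse. CHR elements were found in 2 of the 17 windows, against 15.2% of all windows, and in 2 of the 9 genes (RRM1 and DUT), against 18.2% of all genes. Neither window of CTPS1 held any of the motifs. A match is a run of letters and not a measured binding site.

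Over the 11 pairs of the sensitive lines, palbociclib lowered 7 of the 9 genes past the limits of a 1.5-fold change and an FDR under 0.05. In the order of size these were RRM2, TK1, TYMS, RRM1, DTYMK, DUT and SHMT1. GART and CTPS1 passed the FDR but stayed under the fold limit. Of all genes tested, 9.37% were called lower and 5.58% higher, and none of the 9 was called higher. On the log2(CP20M + 10) scale, the median difference was -1.08 for the 9 genes and -0.11 for all genes tested. Under a median-of-ratios scaling the median of all genes shifted by 0.17 and the share of calls that were lower went from 62.7% to 34.3%. The 9 genes still had negative values under it, and 6 stayed called, with SHMT1 at -0.55 falling short of the fold limit. In these bulk libraries a smaller share of cells in S phase and less RNA per cell cannot be told apart.

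TYMS had the clearest separation. Its 11 DMSO libraries ranged from 1212 to 3359 CP20M with a median of 2179, and its 11 palbociclib libraries from 228 to 1209 with a median of 533. The highest palbociclib library, at 1209 CP20M, and the lowest DMSO library, at 1212, were both from MSTO-211H. In the fit of that line alone TYMS was not called (limma adjusted p = 0.0643). The share of all genes without overlap when lines were pooled was not counted. By line, DMSO and palbociclib means ± SD were 1725 ± 723 and 358 ± 161 CP20M in H2052 (n = 2 each) and 2154 ± 157 and 247 ± 16.8 in H2452 (n = 3 each). The corresponding values for H28 were 2782 ± 615 and 1007 ± 164, and for MSTO-211H they were 1866 ± 858 and 934 ± 355 (n = 3 each). Over the 11 pairs TYMS fell by 1.91 on the log2 scale (SE 0.24, limma adjusted p = 3.76e-05), and all 11 pairs were lower. H2452 kept 11.9% of its DMSO level and MSTO-211H 50.7%.

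**Figure D1:**
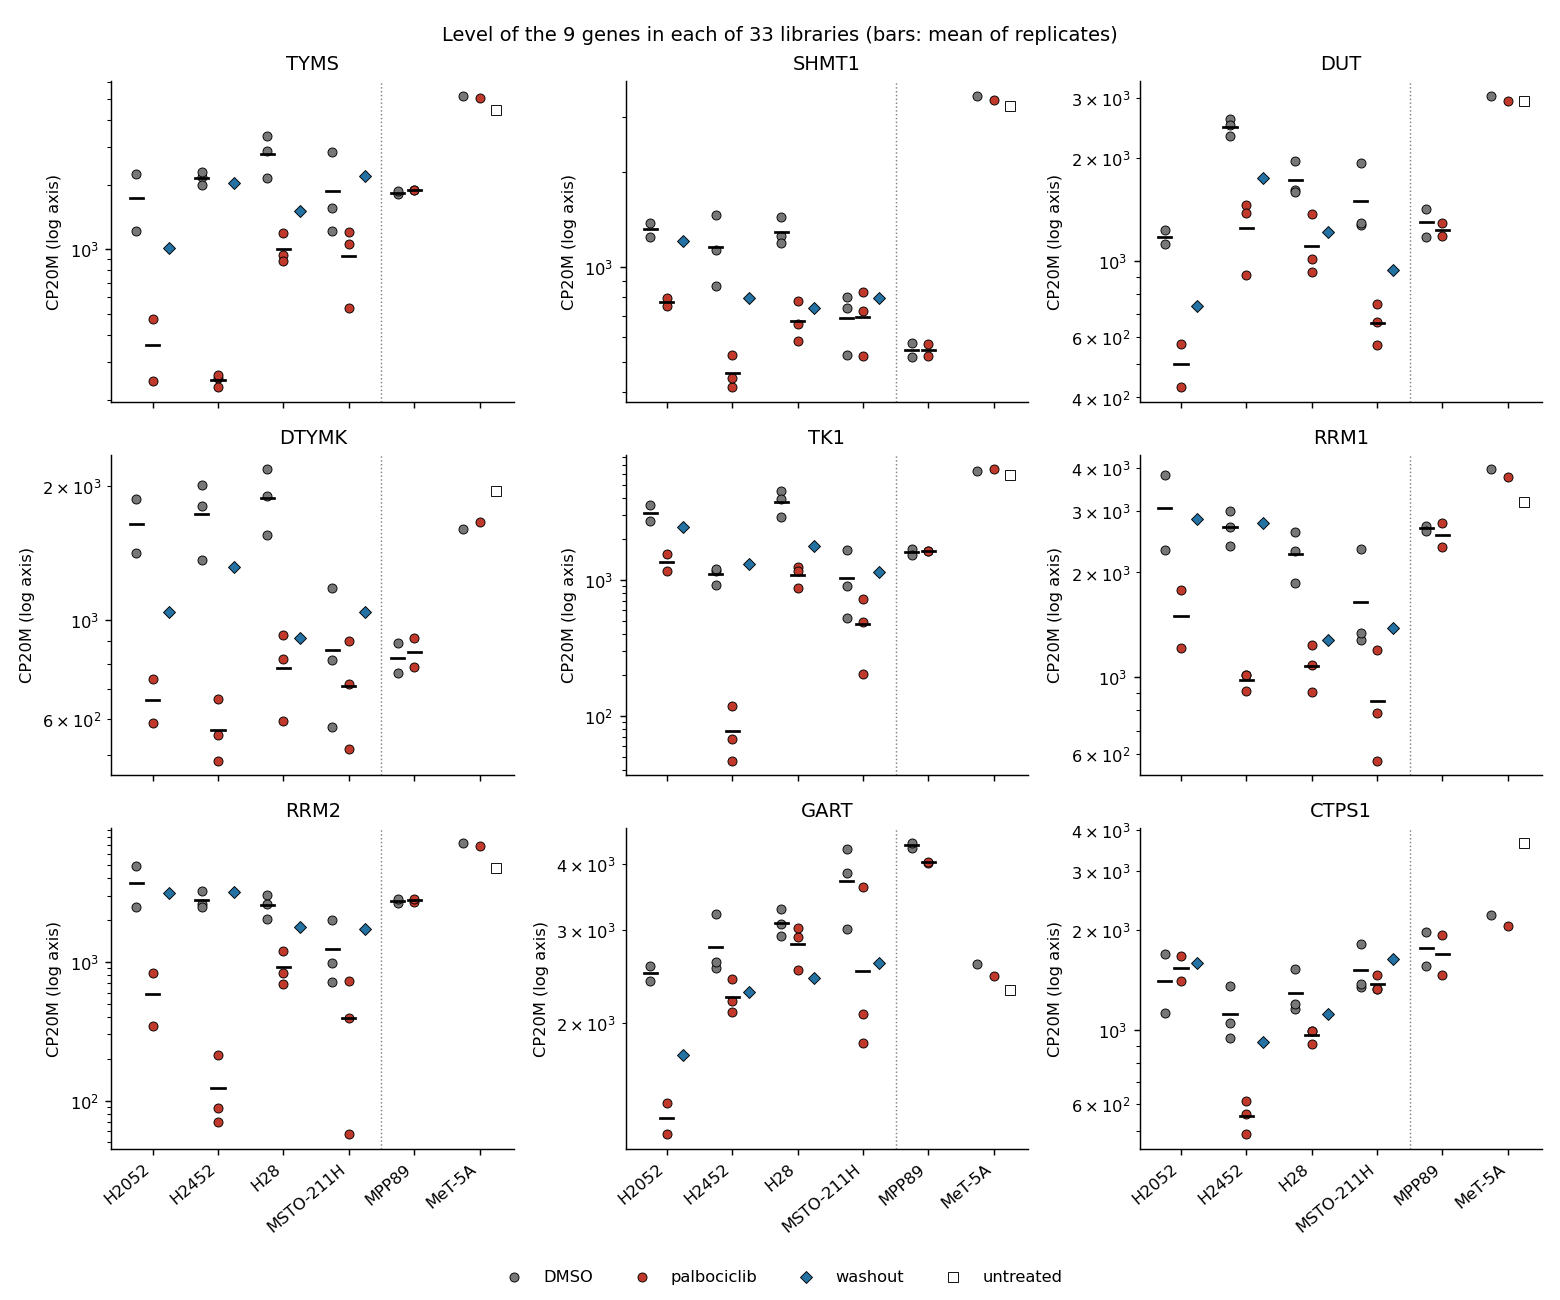
Level of each of the 9 genes (CP20M, log axis) in the 33 libraries by cell line, with DMSO in grey, palbociclib in red, washout as blue diamonds and the untreated MeT-5A library as an open square. Horizontal bars are means of replicates, and the dotted line separates the sensitive lines on the left from MPP89 and MeT-5A, whose palbociclib libraries lie beside their DMSO libraries.

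The other genes of thymidylate supply followed TYMS to different degrees. SHMT1 makes the methylene-folate that TYMS uses, DUT cleaves dUTP to dUMP and keeps uracil out of DNA, and DTYMK phosphorylates dTMP to dTDP. DUT ranged from 1121 to 2598 CP20M under DMSO (median 1613) and from 428 to 1455 under palbociclib (median 914), and it was lower in all 11 pairs. Its fall was 0.99 on the log2 scale (SE 0.11, limma adjusted p = 1.18e-05). The pooled ranges overlapped, while within each of the 4 lines every palbociclib library lay below every DMSO library. H2452 had the highest DMSO libraries, at 2325 to 2598 CP20M.

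DTYMK ranged from 578 to 2182 CP20M under DMSO (median 1555) and from 484 to 927 under palbociclib (median 666). It fell by 1.08 (SE 0.17, limma adjusted p = 0.000224) and was lower in 10 of 11 pairs, the exception being the first MSTO-211H pair at 816 and 900 CP20M. SHMT1 ranged from 524 to 1464 CP20M under DMSO (median 1187) and from 414 to 831 under palbociclib (median 658). It fell by 0.74 (SE 0.15, limma adjusted p = 0.0011), also in 10 of 11 pairs. With the 4 lines rather than the 11 pairs as units, SHMT1 missed the FDR (limma adjusted p = 0.0553), while the other 6 called genes stayed called. Over all alternative settings, the highest limma adjusted p of these 6 genes ran from 0.00694 for RRM1 to 0.0318 for TK1.

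TK1, the cytosolic kinase that salvages thymidine in S phase, had the widest spread of response after RRM2. In H2452 its DMSO libraries stood at 1164, 923 and 1211 CP20M and its palbociclib libraries at 68, 118 and 47. In H28 the values were 4465, 2884 and 3915 under DMSO and 1245, 1156 and 879 under palbociclib. In H2052 they were 3543 and 2701 against 1563 and 1157. The groups did not overlap within any of these 3 lines. Over the 11 pairs TK1 fell by 2.02 (SE 0.32, limma adjusted p = 0.000233), lower in all 11.

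RRM2, the ribonucleotide reductase subunit that carries the radical and whose level follows the cell cycle, had the largest difference of the 9 genes. In H2452 it stood at 2627, 2480 and 3222 CP20M under DMSO and at 70, 214 and 88 under palbociclib, which left 4.36% of the DMSO level. In H2052 it went from 4937 and 2490 to 836 and 344, and in H28 from 3046, 2024 and 2597 to 838, 1204 and 697. In MSTO-211H the 3 pairs disagreed, with 985 and 729, 716 and 57, and 2006 and 395. Over the 11 pairs RRM2 fell by 2.69 (SE 0.39, limma adjusted p = 0.000114), lower in all 11.

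RRM1, the large catalytic subunit, moved less than RRM2 but more evenly. It ranged from 1275 to 3810 CP20M under DMSO (median 2331) and from 572 to 1780 under palbociclib (median 1015). It fell by 1.13 (SE 0.12, limma adjusted p = 1.11e-05), lower in all 11 pairs. Line averages of its log2 difference lay between -0.95 in MSTO-211H and -1.45 in H2452.

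GART carries 3 steps of purine synthesis, 1 of which uses a folate and is inhibited by pemetrexed. CTPS1 makes CTP from UTP. GART ranged from 2405 to 4272 CP20M under DMSO (median 3014) and from 1233 to 3612 under palbociclib (median 2201). Its value was -0.45 (SE 0.10, limma adjusted p = 0.00186), under the fold limit, and it was negative in all 11 pairs. CTPS1 had -0.39 (SE 0.13, limma adjusted p = 0.0258), with 9 of 11 pairs negative, and under the median-of-ratios scaling its adjusted p was 0.269. Altogether 6 of the 9 genes (TYMS, GART, TK1, RRM1, RRM2 and DUT) were lower in every sensitive pair, as were 14.4% of the genes tested.

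**Figure D2:**
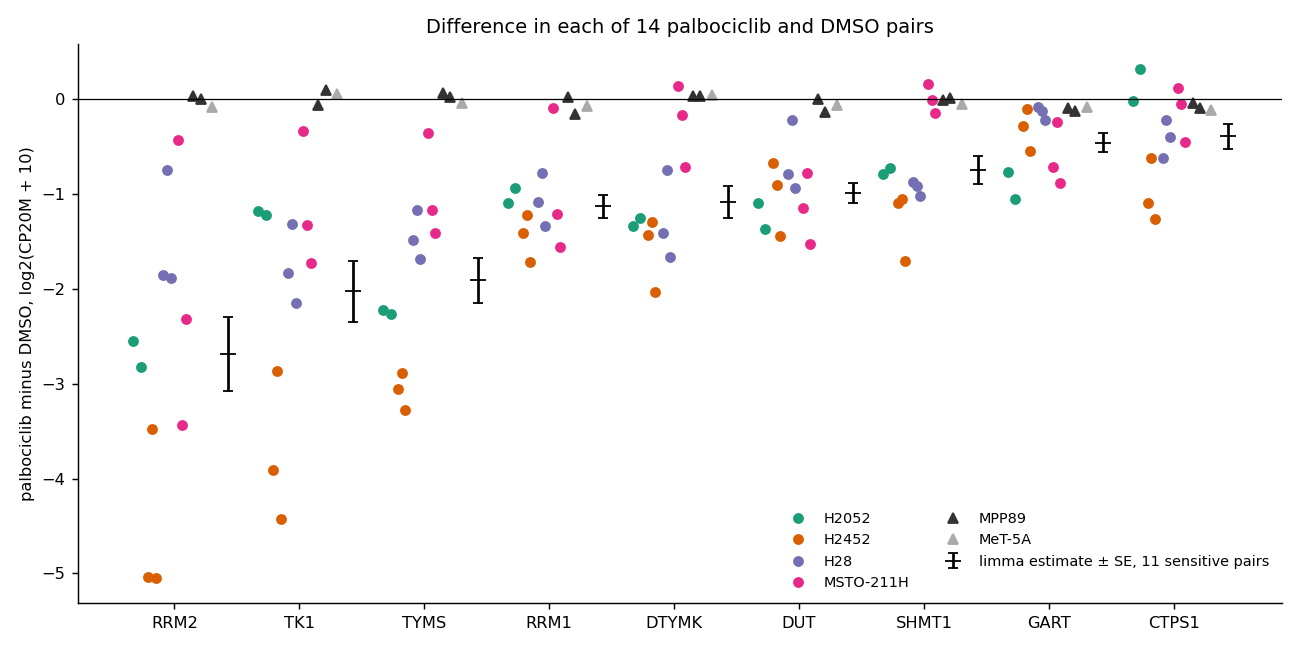
Difference between palbociclib and DMSO on the log2(CP20M + 10) scale in each of the 14 pairs, coloured by line, with circles for sensitive and triangles for resistant lines. Black bars give the limma estimate ± SE over the 11 sensitive pairs, from -2.69 for RRM2 to -0.39 for CTPS1, and the 3 resistant pairs sit near 0 for each gene.

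The sensitive lines were then fitted one by one. In H2052, 8 of the 9 genes were called lower (13% of all genes tested), with CTPS1 at 0.15 the exception. In H2452, 8 were called lower (10.8% of all genes), with GART at -0.31 the exception, and CTPS1 fell there by 0.99 (SE 0.15, limma adjusted p = 0.0212). In H28, 6 were called lower (7.34% of all genes): TYMS, TK1, RRM1, RRM2, DTYMK and SHMT1. In MSTO-211H only DUT was called, and it fell by 1.15 (SE 0.17, limma adjusted p = 0.0368), against 7.94% of all genes called lower. With the filter applied to the libraries of the fit instead of all 33, the MSTO-211H count was 6. With any 1 pair left out the calls were lost in H28 and MSTO-211H, and 0 to 5 were left in H2452, but with the filter within the fit 6 to 7, 2 to 5 and 8 were called, respectively. Under the median-of-ratios scaling the share of calls that were lower went from 73.5% to 29.2% in H2052, from 64.1% to 38.6% in H2452, from 55.5% to 38.4% in H28 and from 57.3% to 32.5% in MSTO-211H.

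The overlap of the libraries was counted as well. The palbociclib libraries lay below every DMSO library for 8 of the 9 genes in H2052, where 2 against 2 libraries gave this for 52.1% of all genes. H2452 had a count of 9 (27.3% of all genes), H28 of 8 (21.4%) and MSTO-211H of 3 (24.3%). The 3 genes in MSTO-211H were TYMS, RRM1 and DUT.

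In MSTO-211H the first pair had smaller differences than the others for RRM2, TK1 and RRM1. The palbociclib library of that pair kept RRM2 at 729, TK1 at 722 and RRM1 at 1198 CP20M. The median difference over 8 mitotic genes (MKI67, TOP2A, CDK1 and others) was -1.02 in that pair against -3.04 and -2.74 in the others. Without that pair the MSTO-211H values were -2.88 for RRM2, -1.52 for TK1 and -1.38 for RRM1. With the filter within the fit, 5 genes were then called, against 6 with all 3 pairs. Under the main filter 0 were called, against 1 with all 3 pairs. Over all sensitive lines 7 genes were called with or without the first MSTO-211H pair. SHMT1 did not follow the others in this line: its 3 DMSO libraries were at 739, 524 and 803 CP20M and its palbociclib libraries at 831, 521 and 724. Its MSTO-211H difference was 0.00 (SE 0.10), and it turned to -0.08 without the first pair.

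A test across the 4 sensitive lines asked whether the response itself differed. By the limma F test, with no limit on the fold, 7 of the 9 genes differed among lines, as did 37.1% of all genes tested. The gap between the highest and lowest line was 3.03 log2 units for RRM2 (adjusted p = 0.0173), 2.61 for TK1 (adjusted p = 0.00264) and 2.09 for TYMS (adjusted p = 0.000678). SHMT1 had a gap of 1.29 (limma adjusted p = 0.00169), CTPS1 of 1.14 (adjusted p = 0.00846), DTYMK of 1.34 (adjusted p = 0.0133) and GART of 0.77 (adjusted p = 0.0281). RRM1, with a gap of 0.50 (limma adjusted p = 0.484), and DUT, with 0.58 (limma adjusted p = 0.259), did not pass. H2452 had the lowest value for RRM2, TK1, TYMS, RRM1, DTYMK, SHMT1 and CTPS1, and H2052 for GART and DUT. Without the replicate block 4 genes passed.

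In the resistant lines none of the 9 genes was called. Their differences over the 3 pairs lay between -0.10 and 0.04 on the log2 scale, and the share of all genes called lower was 0.0%. No gene of the 17803 was called by limma in either direction, and 1258 had an unadjusted p under 0.05. In MPP89, TYMS stood at 1808 and 1860 CP20M under DMSO and at 1896 and 1892 under palbociclib, and RRM2 at 2642 and 2839 against 2714 and 2852. In MeT-5A, TYMS was 5183 and 5061 CP20M and RRM2 7238 and 6863 under DMSO and palbociclib.

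The difference between the classes was tested as an interaction. Its units were the 11 sensitive and 3 resistant pairs, which came from only 4 and 2 lines, and it was not run on line means. By limma with no limit on the fold, TYMS (-1.93, SE 0.48, adjusted p = 0.0218), RRM1 (-1.06, SE 0.24, adjusted p = 0.0137), RRM2 (-2.68, SE 0.78, adjusted p = 0.0429) and DUT (-0.93, SE 0.21, adjusted p = 0.0146) responded more in the sensitive lines. These are 4 of 9 genes, beside 7.81% of all genes tested. DTYMK (limma adjusted p = 0.0509), TK1 (adjusted p = 0.0566), SHMT1 (adjusted p = 0.123), GART (adjusted p = 0.253) and CTPS1 (adjusted p = 0.479) did not pass. Only TYMS and DUT passed under the median-of-ratios scaling, which took the share of calls that were lower from 83.3% to 40.1%, and no gene did when any of the 3 resistant pairs was left out. Class, RB1 status and, for MeT-5A, the SV40 origin cannot be told apart in this design.

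Washout asked whether the genes came back within 48 h. Each washout library was compared with the DMSO and palbociclib libraries of the same experiment, so both comparisons share libraries. RRM2 returned furthest: it stood at 2490, 344 and 3153 CP20M under DMSO, palbociclib and washout in H2052, at 3222, 88 and 3215 in H2452 and at 2597, 697 and 1776 in H28. MSTO-211H had 2006, 395 and 1734. TYMS stood at 1214, 244 and 1016 in H2052, at 2296, 228 and 2039 in H2452, at 2853, 883 and 1515 in H28 and at 2838, 1059 and 2197 in MSTO-211H. In H2052 and H2452 both genes were thus back at 83.7% to 127% of the DMSO level. In H28 RRM2 reached 68.4%, TYMS 53.1% and TK1 45.3% of DMSO.

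Against palbociclib, 4 of the 9 genes rose over the 4 lines, beside 1.4% of all genes tested. RRM2 rose by 2.91 (SE 0.50, limma adjusted p = 0.0246), TYMS by 1.73 (SE 0.32, adjusted p = 0.0356), RRM1 by 1.03 (SE 0.20, adjusted p = 0.037) and DUT by 0.61 (SE 0.12, adjusted p = 0.0483). TK1 had a difference of 1.95 (SE 0.53, limma adjusted p = 0.131), spread between 1.00 in H28 and 4.54 in H2452. DTYMK had 0.85 (limma adjusted p = 0.0715), SHMT1 0.50, CTPS1 0.37 and GART 0.21. All genes but GART were above palbociclib in all 4 lines, 8 of 9, as were 23.5% of all genes. Only RRM2 stayed called under the median-of-ratios scaling. None did when any 1 line was left out with the filter over all libraries, and with the filter within the fit the count was 4 without H28, 1 without H2452 and 0 without H2052 or MSTO-211H.

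**Figure D3:**
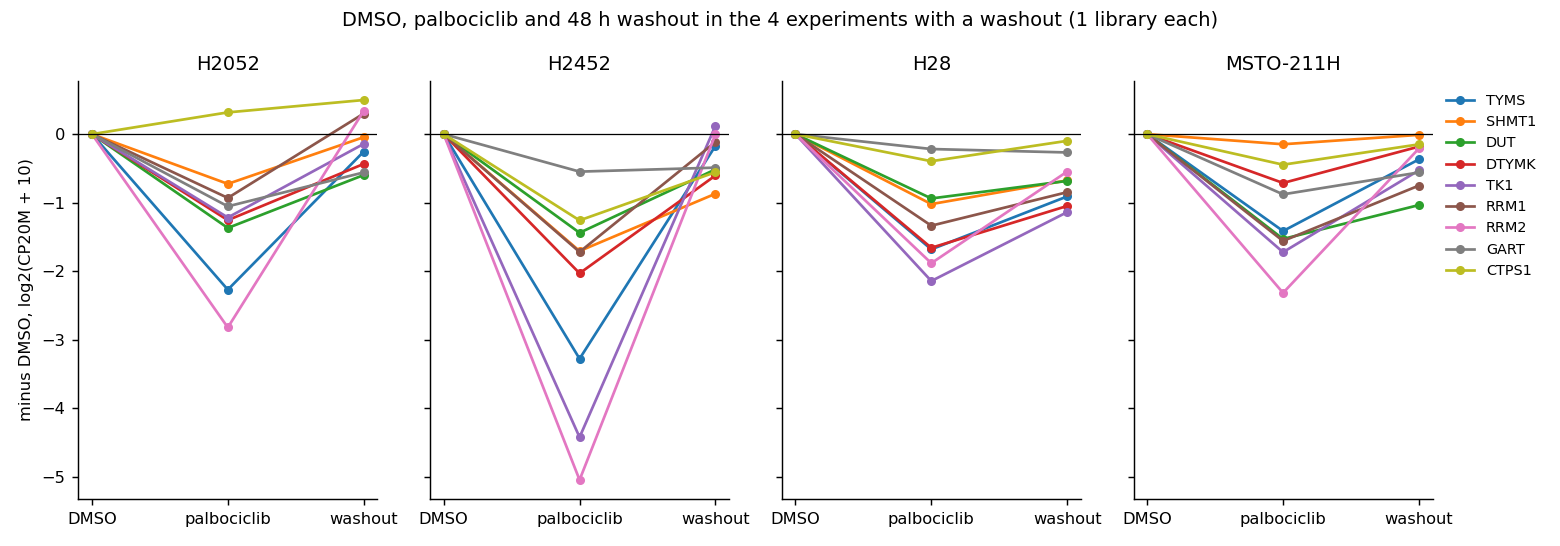
Difference from DMSO on the log2(CP20M + 10) scale under palbociclib and after 48 h of washout for the 9 genes (1 library per point). Each of the 4 washout libraries is shown with the 10-day pair of its line, taken as the same experiment. RRM2 went from -5.04 to -0.00 in H2452 and from -1.88 to -0.55 in H28, while GART in grey and DUT in green ended below 0 in each line.

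DUT was the gene still called below DMSO. It reached 738 CP20M after washout in H2052 against 1121 under DMSO, 1744 against 2495 in H2452, 1215 against 1956 in H28 and 941 against 1938 in MSTO-211H. These are 48.6% to 69.9% of DMSO. Its fall against DMSO was 0.71 (SE 0.12, limma adjusted p = 0.0107), and it was 1 of 9 genes called, beside 2.95% of all genes. The median-of-ratios scaling took the share of calls that were lower from 51.3% to 27.7%. The call of DUT was lost without H2052 or without MSTO-211H. GART had -0.47 (SE 0.12, limma adjusted p = 0.0415), under the fold limit. It stood at 1742 against 2570 in H2052, 2292 against 3220 in H2452, 2433 against 2930 in H28 and 2603 against 3839 in MSTO-211H. Below DMSO in all 4 lines were 5 of the 9 genes (TYMS, GART, DUT, DTYMK and SHMT1), as were 20.4% of all genes.

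Levels under DMSO differed among the lines for 7 of the 9 genes by the limma F test over 5 lines, where 94.3% of all genes did. TYMS (limma adjusted p = 0.189) and CTPS1 (limma adjusted p = 0.0859) did not pass. MeT-5A, with 1 DMSO library, stood highest for 7 genes, at 5183 CP20M for TYMS, 6266 for TK1 and 3495 for SHMT1, and these values did not enter the F test. The order of DMSO means for TYMS ran MeT-5A, H28, H2452, MSTO-211H, MPP89 and H2052, and each neighbouring pair below MeT-5A overlapped. For RRM2 it ran MeT-5A, H2052, H2452, MPP89, H28 and MSTO-211H, with overlap between H2052 and H2452, H2452 and MPP89, and MPP89 and H28. TK1 spread most after SHMT1, with MeT-5A 6.11 times the 1026 CP20M of MSTO-211H.

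DMSO levels were also compared between the 2 resistant and the 4 sensitive lines. A two-sided exact permutation test has 15 ways to choose 2 of the 6 lines. Its p ran from 0.0667 for CTPS1, the smallest this design allows, to 0.8 for SHMT1. CTPS1 was 0.59 log2 units higher in the resistant lines. The untreated MeT-5A library had CTPS1 at 3660 CP20M, against 2220 and 2055 in the DMSO and palbociclib libraries of that line, and RRM2 at 4770 against 7238 and 6863.

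Other genes of the pathway were counted by list over the 11 sensitive pairs, where 9.37% of all genes tested were called lower and 5.58% higher. In the thymidylate and folate cycle 2 of 10 genes fell and none rose, among them MTHFD1L, a mitochondrial formate maker (-0.61, SE 0.12, limma adjusted p = 0.00094). In purine synthesis 5 of 12 fell: PRPS2, which makes the ribose donor (-0.91, SE 0.09), PFAS (-0.87, SE 0.08), PAICS (-0.70, SE 0.11), ADSL (-0.64, SE 0.07) and GMPS (-0.59, SE 0.06). In pyrimidine synthesis 1 of 5 fell, DHODH, the mitochondrial dehydrogenase (-0.78, SE 0.08, limma adjusted p = 1.03e-05). None of the 7 genes of dNTP supply and removal was called. The list medians were -0.40, -0.52, -0.23 and -0.18, beside -1.08 for the 9 genes and -0.11 for all genes tested. Lists were counted under the main scaling only. The median-of-ratios scaling shifted the median of all genes by 0.17, so calls near the fold limit may depend on the scaling.

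Salvage held the only rise. TK2, the mitochondrial counterpart of TK1, ranged from 450 to 1175 CP20M under DMSO and from 1010 to 2189 under palbociclib and was higher in 10 of 11 pairs. It rose by 0.66 (SE 0.15, limma adjusted p = 0.00238) while TK1 fell, and in H28 its libraries went from 450 to 681 CP20M under DMSO to 1128 to 1499 under palbociclib. DCK, which phosphorylates deoxycytidine, fell by 0.85 (SE 0.10, limma adjusted p = 1.7e-05) in 11 of 11 pairs, and the other 11 of 13 salvage genes were not called. Of the counterparts of the 9 genes, RRM2B, the p53-inducible small subunit, had -0.14 (SE 0.15, limma adjusted p = 0.458). SHMT2, the mitochondrial form of SHMT1, had -0.51 (SE 0.12, adjusted p = 0.00427) and CTPS2 -0.35 (SE 0.09, limma adjusted p = 0.00493), both under the fold limit.

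Of the genes that bring pemetrexed into the cell, hold it there or release it, none of the 4 tested was called over the 11 sensitive pairs. SLC19A1, the reduced folate carrier, had 0.07 (SE 0.12), SLC46A1, the proton-coupled carrier, 0.22 (SE 0.14), FPGS, which adds glutamates, -0.18 (SE 0.06) and GGH, which removes them, 0.13 (SE 0.19), with limma adjusted p of 0.658, 0.193, 0.028 and 0.596. In the fit of H2052 alone GGH rose by 0.81 (SE 0.08, limma adjusted p = 0.0376) and SLC19A1 fell by 0.63 (SE 0.10, limma adjusted p = 0.0442). FOLR1 never exceeded 46 CP20M and was not tested. SLC19A1 differed widely between lines: its DMSO libraries held 16512 to 19481 CP20M in H28, 1061 to 1476 in H2052, 2352 to 3032 in H2452 and 2260 to 3098 in MSTO-211H. SLC46A1 was lowest in H28, at 167 to 203 CP20M under DMSO, against 960 or more in the other sensitive lines.

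**Figure D4:**
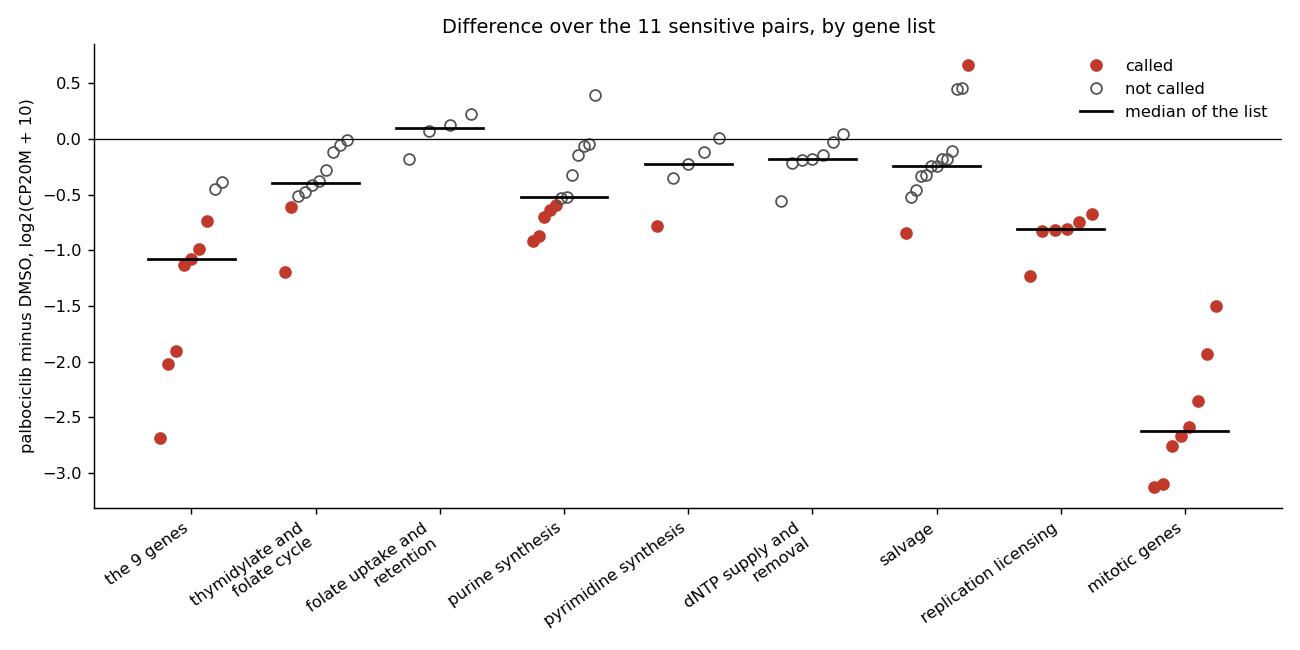
Difference between palbociclib and DMSO over the 11 sensitive pairs (limma estimate on the log2(CP20M + 10) scale) for each gene of 9 lists, filled where called and open where not, with a bar at each list's median. The 9 genes lie between -2.69 and -0.39, the 6 licensing genes between -1.23 and -0.68, and the 8 mitotic genes between -3.12 and -1.50, while 5 pathway lists reach above 0.

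Among proliferation genes counted for comparison, the licensing genes MCM2 to MCM7 fell in 6 of 6 with a median of -0.81, and the mitotic genes in 8 of 8 with a median of -2.62. The 9 genes lay between them with -1.08. By line the median over the 9 genes, averaged over pairs, was -1.15 for H2052, -1.45 for H2452, -1.05 for H28 and -0.84 for MSTO-211H. The licensing median, averaged likewise, was -0.86, -1.61, -0.89 and 0.07 in the same order. In MSTO-211H the licensing medians of the pairs disagreed in sign, at 0.19, 0.62 and -0.59. Whether the 9 genes and the licensing genes differ there was not tested.

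Across the 33 libraries, each centred on its line, the genes most like each of the 9 were ranked by Pearson's r on the log2 scale. The libraries share treatments, so r is a description. TYMS was closest to TYMSOS (0.98), CDCA8 and NDC80, TK1 to CDCA2 (0.99), SKA1 and ESPL1, and RRM1 to NCAPG2 (0.98), NCAPH and NCAPG, most of them genes of mitosis. DTYMK was closest to PCNA (0.97), GMNN and UHRF1, and SHMT1 to DTYMK (0.95) and MCM6. DUT was closest to the histone genes HIST1H1E and HIST1H4C (0.95 each). GART was closest to CPSF2 and IMPDH2 (0.94 each), and CTPS1 had no gene above CDC25A (0.83). Between the 9 genes themselves, TYMS and RRM2 had r = 0.96 and GART and CTPS1 r = 0.19.

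Some of these values rest on loci that carry more than 1 gene. TYMS (chromosome 18, 657653 to 673578, + strand, GRCh38) overlaps TYMSOS and ENOSF1 on the opposite strand, and RRM1, DUT, GART and SHMT1 overlap RRM1-AS1, DUT-AS1, SON and SMCR8. The kit was directional, but the strand setting of the counting is not given in the sources used here, so reads of such pairs cannot be told apart with certainty. The CP20M of TYMSOS was 6.58% to 26.9% of that of TYMS. Percentages of this kind compare scaled counts without regard to gene length and are not relative expression. RRM2 (chromosome 2, 10120698 to 10211725, + strand) had r = 0.9992 with AC007240.1. The CP20M of AC007240.1 was 44.5% to 58.1% of that of RRM2 in every library. Whether they share reads was not tested. Pseudogenes named after the 9 genes summed to at most 67 CP20M (those of DUT), against 428 CP20M in the lowest DUT library.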

How the data were processed

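RNA-seq libraries of 6 established lines were made with a directional kit and sequenced paired-end. According to the submitters' processing notes, reads were trimmed with Trimmomatic 0.36, mapped to GRCh38 with STAR 2.5.3 and counted with HTSeq 0.9.1. The deposited CP20M values are a score that the authors scaled to library size and rounded up, so the count model named in their methods, DESeq2, was not used here. Each pair of libraries came from 1 experiment, and deviations from group means correlated within pairs with r from 0.18 to 0.78.

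A pseudocount of 10 was added before taking log2, and models were fitted by limma 3.58.1 with an intensity trend in R 4.3.3. The filter was 100 CP20M in at least 1 of 33 libraries (17803 of 58302 genes). A gene was called at a fold above 1.5 and a Benjamini-Hochberg FDR under 0.05 over all genes tested, and interactions and F tests by the FDR alone. The experiment was a block, or the line for washout. P-values of the single-line fits and the F tests measure the spread between experiments on the same cell lines. In the fits of the 11 sensitive pairs, the resistant pairs and the class difference they also take in differences in response between lines. Those fits count each pair as a unit, although pairs of the same line are repeat experiments on the same cells. Line means were tried as units for the 11 sensitive pairs only and not for the class difference. For washout, with 1 experiment per line, they measure the spread between the 4 lines. In simulated data 200 genes were changed to test each fit. For the 11 sensitive pairs the fit recovered 100% of log2 changes of 2 with 2 false calls among 17803 genes. In that simulation the change was the same in every line, and the spread was set by a formula and not taken from the data. Smaller changes and responses that differ between lines were not simulated there.

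Replicates had equal values at no more than 4.33% of genes, so none was counted as a duplicate. Named genes are the 9 genes, the largest called changes, paralogs and pemetrexed handlers of their pathway, and for each gene the most alike. MTHFD1L, PAICS, ADSL, GMPS and DHODH are named in addition, chosen once values had been seen. The genes and lists were chosen with earlier results of these data known. A gene of the folate list is counted but not reported here. Promoters are RefSeq windows and positions GENCODE 44. Alternatives were the block, the pseudocount, the filter, the scaling, line means and each pair or line left out, and the last with the filter within the fit was added after seeing the data.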

Additional observations from a re-analysis of the deposited data

Results flagged for a closer look

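The rise of TK1 from palbociclib to washout stood apart in H2452, at 4.54 log2 units against at most 1.19 in the other 3 lines. In H2452 TK1 stood at 1211, 47 and 1317 CP20M under DMSO, palbociclib and washout. Chance alone flags about 1 in 20 groups by this criterion, and each of the 9 genes was screened.

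The response to palbociclib differed between sensitive and resistant lines by the limma interaction for TYMS (-1.93), RRM1 (-1.06), RRM2 (-2.68) and DUT (-0.93), each negative where the sensitive lines fell more. Among the 4 sensitive lines it differed by the F test with a gap between highest and lowest line of 3.03 for RRM2, 2.61 for TK1, 2.09 for TYMS, 1.34 for DTYMK, 1.29 for SHMT1, 1.14 for CTPS1 and 0.77 for GART.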

How the results depend on the processing

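Over the sensitive lines the count stayed at 6 or 7 of the 9 genes in all 18 alternatives. SHMT1 was the gene that missed the limits, at -0.55 under median-of-ratios scaling (adjusted p = 0.00873, limma) and with line means as units. The counts of the single lines, the class difference and washout depended more on the settings. Without the replicate block, which pairs the libraries of 1 experiment, the count among sensitive lines went from 7 to 4, and washout went from 4 to 0 against palbociclib and from 1 to 0 against DMSO. The block left the other counts within 1.5 times. With no filter the count was 4 in H2052 (8 in the main analysis), 0 in MSTO-211H (1), 2 for the class difference (4) and 2 for washout against palbociclib (4). The filter within the fit gave 6 in MSTO-211H. Median-of-ratios scaling gave 2 for the class difference and 1 for washout against palbociclib. Leaving out 1 pair gave 0 to 5 for H2452 (8) and 0 for both H28 (6) and MSTO-211H. Where it gave 0 in these lines, 0 of all 17803 genes tested were called. With the filter within the fit these ranges were 8 for H2452, 6 to 7 for H28 and 2 to 5 for MSTO-211H. The class difference went from 4 to between 0 and 6 with 1 pair left out. With 1 line left out, washout against palbociclib gave 0, or 0 to 4 with the filter within the fit, and washout against DMSO gave 0 to 1 under both filters. The cause was not tested.

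Values near 0 turned sign, and no limma call was among them. Under median-of-ratios scaling CTPS1 was 0.0463 in MSTO-211H and 0.0203 for washout against DMSO, and TYMS was -0.0046 in the resistant lines. With 1 MSTO-211H pair left out, SHMT1 ranged from -0.0778 to 0.0795 and CTPS1 from -0.2493 to 0.0324. With 1 resistant pair left out, TYMS ranged from -0.0049 to 0.0463, TK1 from -0.0032 to 0.0782, RRM2 from -0.035 to 0.0226 and SHMT1 from -0.0257 to 0.0017. With 1 line left out, washout against DMSO ranged from -0.2526 to 0.0424 for RRM2 and from -0.2673 to 0.0837 for CTPS1. For MSTO-211H and washout, leaving out a pair or line with the filter within the fit gave the same reversed values. Depth was estimated for 23 of 33 libraries, so no counting interval is given.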
